A study of Mus musculus with 6 samples.

Results

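The ribosomal protein genes encode the protein part of the cytosolic ribosome, the particle that translates messenger RNA. They were taken here as the rows of the scanner table whose target name is RPL or RPS followed by a number (with a closing A, X or L allowed) or by P0, P1 or P2. This gave 46 of 34492 rows, 27 of the large and 19 of the small subunit. A row is 1 gene target on the array. RefSeq lists 80 mouse protein-coding genes with such names, of which 45 (56.2%) had a row of the same name. The row RPS3A was matched to Rps3a1 by a synonym, and the other members, such as Rpl3, Rpl5 and Rps6, were not analysed here. Of the 46 rows, 39 (23 of the large and 16 of the small subunit) scored above 0.95 for detection on at least 3 of the 6 arrays and were tested.

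RNA came from whole soleus, a slow muscle of the lower leg, of male mice aged 11 months. The 2 genotypes were wild type and Coco/KO, both of the designation CBB6F1xFVB/n. In Coco/KO muscle skeletal alpha-actin was replaced by cardiac actin, per the series title; which promoter drives the cardiac actin is not stated in the labels. Each genotype had 3 arrays, each holding the pooled RNA of 2 soleus muscles from different mice, so p-values measure the spread between pools. ACTA1 (skeletal alpha-actin) fell by 4.59 on the log2 scale in Coco/KO (SE 0.20, limma, adjusted p = 2.96e-05), and ACTC1 (cardiac alpha-actin) rose by 2.44 (SE 0.31, adjusted p = 0.0298), the directions that the labels give. All 10 muscle fibre markers examined were detected and tested.

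Most ribosomal proteins enter the particle in equal amounts. Ribosomal protein mRNAs carry a pyrimidine tract at the very 5′ end, through which the growth kinase mTOR controls their translation. In muscle, ribosome content sets the capacity for protein synthesis and changes in growth and wasting. A few members have paralogs with restricted expression, among them Rpl3l, the striated muscle form of Rpl3, and Rpl39l, which is best known from testis.

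The starts of 6 of these genes are shown because they are the members that the values below turn on: the 3 with the largest positive differences among those with a RefSeq promoter, the one with the largest negative difference, the muscle paralog, and Rpl28 as an example of a pyrimidine tract that begins at the annotated start. Each runs 5′ to 3′ on the strand of the gene, from 70 bases before to 30 bases after the first start that RefSeq lists (GRCm38.p6). Capitals mark matches to the letters searched. The pyrimidine tract was searched on the sense strand by the letters CTTTCC. A second and shorter pyrimidine run, searched on the same strand and able to overlap with the first, was CTCTT. The ETS factor motif, searched on both strands of every window, was CCGGAAG. The motif of the factor YY1, also searched on both strands of every window, was AAGATGGC. The letters of the TATA box, searched on the sense strand at any position of the window, were TATAAA.
Rpl14, chr9:120571447-120571546, plus strand: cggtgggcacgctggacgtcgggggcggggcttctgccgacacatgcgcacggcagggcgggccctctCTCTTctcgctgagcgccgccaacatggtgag
Rps2, chr17:24719993-24720092, plus strand: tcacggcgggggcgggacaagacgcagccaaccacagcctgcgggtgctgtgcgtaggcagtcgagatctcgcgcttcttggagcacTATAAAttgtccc
Rpl13a, chr7:45128716-45128815, minus strand: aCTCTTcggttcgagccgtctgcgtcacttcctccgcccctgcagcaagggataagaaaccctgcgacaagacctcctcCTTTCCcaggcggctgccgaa
Rpl22, chr4:152325656-152325755, plus strand: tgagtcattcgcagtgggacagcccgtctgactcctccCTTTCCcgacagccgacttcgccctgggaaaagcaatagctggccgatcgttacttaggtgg
Rpl3l, chr17:24727756-24727855, plus strand: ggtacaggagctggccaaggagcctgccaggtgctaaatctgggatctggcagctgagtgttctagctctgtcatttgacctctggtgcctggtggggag
Rpl28, chr7:4792895-4792994, plus strand: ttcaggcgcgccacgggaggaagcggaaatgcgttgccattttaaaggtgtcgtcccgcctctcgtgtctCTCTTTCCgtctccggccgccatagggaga

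A RefSeq promoter was found for 34 of the 46 members. CTTTCC was present in 9 of these 34 windows (26.5%) and in 4.68% of the 27025 windows of all genes in the table. CTCTT was present in 11 (32.4%, against 13.3% of all) and CCGGAAG in 10 (29.4%, against 5.73%). AAGATGGC was found in 1 (2.94%, against 1.14%) and TATAAA in 2 (5.88%, against 3.93%). The Rpl3l window held none of these motifs, Rpl22 held a tract before its start, and Rpl14 held one across its start. The TATAAA of Rps2 lay after its start. A match describes these letters in this window and is not a measured binding site. Most bases of a window lie before the start, so these shares do not measure the tract at the 5′ end of the mRNA.

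The comparison asked whether ribosomal protein mRNA was higher or lower in the Coco/KO muscles than in the wild-type muscles. None of the 39 tested rows passed an adjusted p of 0.05 (limma, Benjamini-Hochberg over 12611 tested rows), where 0.143% of all tested rows passed (0.0634% higher and 0.0793% lower in Coco/KO). At an unadjusted p under 0.05 there were 2 members (5.13%), RPL14 higher and RPL22 lower, against 8.19% of all tested rows (3.96% higher and 4.23% lower). RefSeq lists 167 pseudogenes named after 33 of the members. Whether the probes of these rows also match such copies was not examined, and any signal from them cannot be told apart here. The members divided evenly, 19 higher and 20 lower in Coco/KO. Their median log2 difference was -0.0009, beside -0.0003 for all tested rows. The middle of their distribution lay between -0.09 and 0.08 (quartiles), against -0.14 and 0.13 for all tested rows. In a muscle RNA, fewer cells of a type and less RNA per cell cannot be told apart.

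The size of change that these arrays leave possible was read from the 95% intervals of the single rows. For 24 of 39 members the interval lay wholly within 0.5 log2 units of 0, and for 35 of 39 within 1 unit. The 4 members whose intervals reached past 1 were RPL14, RPL29, RPL13A and RPS2. Large subunit rows had a median difference of 0.01 with 13 of 23 higher, and small subunit rows a median of -0.03 with 6 of 16 higher. No test was made of the difference between the subunits.

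**Figure D1:**
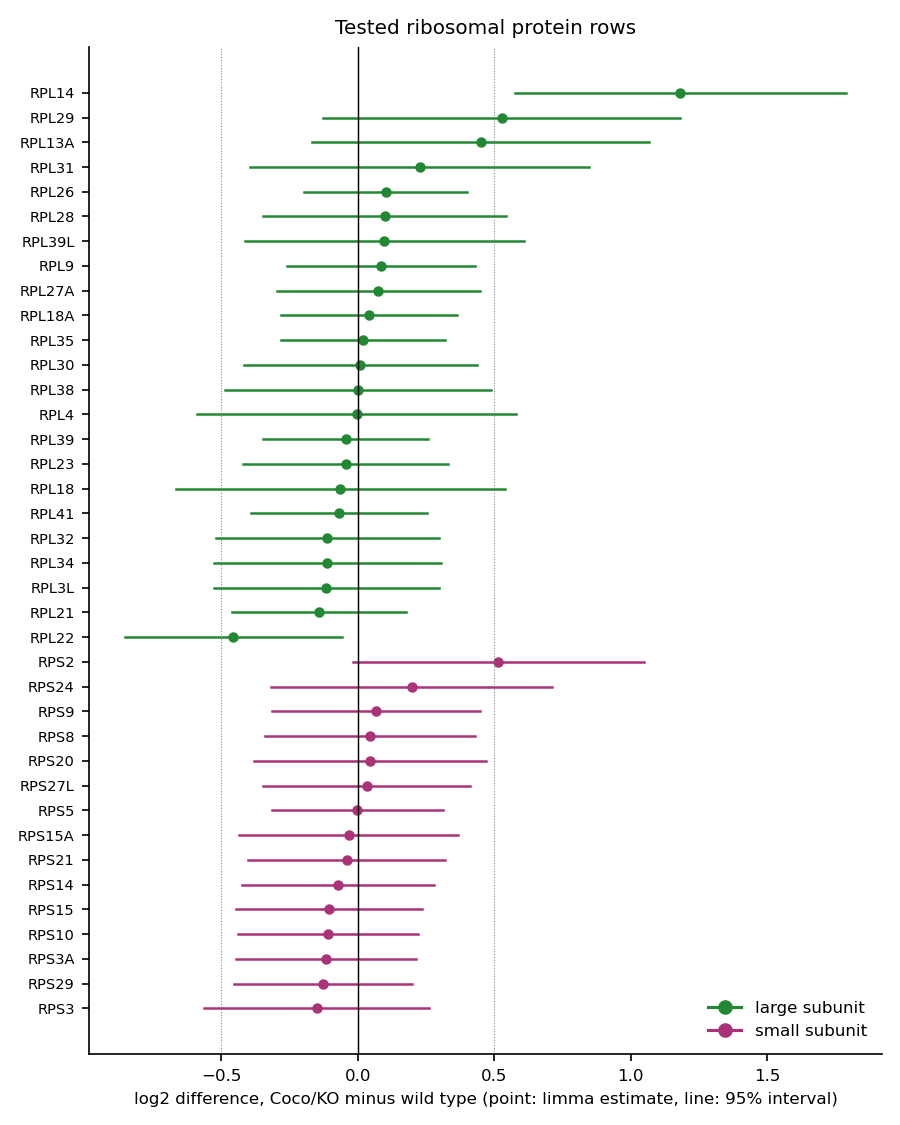
Log2 difference between Coco/KO and wild type (x axis) for 38 of the 39 tested ribosomal protein rows (y axis), with limma's 95% interval, large subunit in green and small subunit in purple; dotted lines mark 0.5 log2 units on either side of 0. Most rows sit close to 0, RPL14 lies apart at 1.18, and RPL22 is the lowest at -0.46.

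RPL14, a protein of the large subunit, had the largest difference of the family. Its deposited intensity was 173.3, 108.0 and 74.6 on wild-type arrays 1 to 3 and 309.1, 304.6 and 394.0 on Coco/KO arrays 1 to 3. After normalization the log2 signal was 8.06, 7.22 and 7.03 in wild type and 8.47, 8.87 and 8.53 in Coco/KO. Every Coco/KO array lay above every wild-type array, with wild-type array 1 nearest to the Coco/KO group and wild-type arrays 2 and 3 well below it. The group means were 7.44 ± 0.55 (SD, n = 3) and 8.62 ± 0.22, a difference of 1.18 (SE 0.27, 95% interval 0.58 to 1.79), or 2.27-fold. It ranked as number 88 by p among all tested rows and did not pass (limma, adjusted p = 0.259). The error between the beads of 1 array was 5.36% to 11.9% of the RPL14 intensity. The adjusted p over 16 alternative settings had its lowest value, 0.0722, when wild-type array 1 was left out, and its highest, 0.595, when wild-type array 3 was. None of these settings called RPL14. The sign was positive in all 16, and the smallest difference, 0.43, came with a normexp background model.

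Other large subunit members with positive differences overlapped between the genotypes or barely differed. RPL29, also described as a heparin-binding protein of the cell surface, had log2 signals of 10.12, 9.63 and 8.83 in wild type and 10.06, 10.04 and 10.05 in Coco/KO. The Coco/KO arrays nearly coincided, and the low wild-type array 3 carried the difference of 0.53 (SE 0.29, limma, adjusted p = 0.695). Without wild-type array 3 the RPL29 difference was 0.18 and without wild-type array 1 it was 0.83. With chip position in the model it was 0.21.

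RPL13A, which in human monocytes also joins a complex that silences inflammatory mRNAs, had log2 signals of 9.89, 9.43 and 10.29 in wild type and 9.83, 10.47 and 10.65 in Coco/KO. Coco/KO array 1 lay below 2 of the wild-type arrays, and the difference was 0.45 (SE 0.27, adjusted p = 0.741). Leaving out 1 array moved the RPL13A value between 0.23 (without wild-type array 2) and 0.69 (without Coco/KO array 1), and it was 0.28 without Coco/KO array 3. RPL31, a large subunit protein at the rim of the exit tunnel, had 8.98, 8.96 and 9.08 in wild type and 8.55, 9.45 and 9.70 in Coco/KO. Its wild-type arrays agreed closely and its Coco/KO arrays stood on both sides of them (difference 0.23, SE 0.27, adjusted p = 0.926). The RPL31 value was 0.57 without Coco/KO array 1, 0.11 without Coco/KO array 2 and -0.01 without Coco/KO array 3. RefSeq lists 23 pseudogenes named after Rpl31, the most of any member.

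RPL26, which in human cells also promotes translation of p53 mRNA, was the other member higher in every Coco/KO array. Its log2 signals were 14.43, 14.38 and 14.36 in wild type and 14.48, 14.56 and 14.44 in Coco/KO. The groups were parted by a very narrow gap, with a difference of 0.10 (SE 0.13, limma, adjusted p = 0.929). RPL28 had a difference of 0.10 (SE 0.20), RPL39L 0.10 (SE 0.23) and RPL35 0.02 (SE 0.13). RPL28 and RPL39L were dim rows whose intensities did not exceed 122.3 on any array.

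RPL22, a large subunit protein that mice need for the development of alpha-beta T cells, had the lowest difference. Its intensity was 675.6, 996.2 and 785.4 on the wild-type arrays and 471.4, 459.8 and 902.7 on the Coco/KO arrays. The log2 signals after normalization were 9.82, 9.80 and 9.72 in wild type and 9.003, 9.39 and 9.57 in Coco/KO. All 3 Coco/KO arrays lay below the wild-type arrays, with Coco/KO array 1 the lowest. The means were 9.78 ± 0.05 (SD, n = 3) and 9.32 ± 0.29, a difference of -0.46 (SE 0.17, 95% interval -0.85 to -0.06), which did not pass (limma, adjusted p = 0.519). Without Coco/KO array 1 the RPL22 difference was -0.29. The row RPL22L1, its paralog, had log2 signals of 11.92, 12.43 and 12.59 in wild type and 12.11, 12.18 and 12.96 in Coco/KO, which overlapped (0.10, SE 0.26, adjusted p = 0.974). The other large subunit rows among the lowest were RPL21 (-0.14, SE 0.14), RPL34 (-0.11, SE 0.18) and RPL32 (-0.11, SE 0.18), each with overlapping groups. RPL39, whose paralog RPL39L is given above, had -0.04 (SE 0.13).

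**Figure D2:**
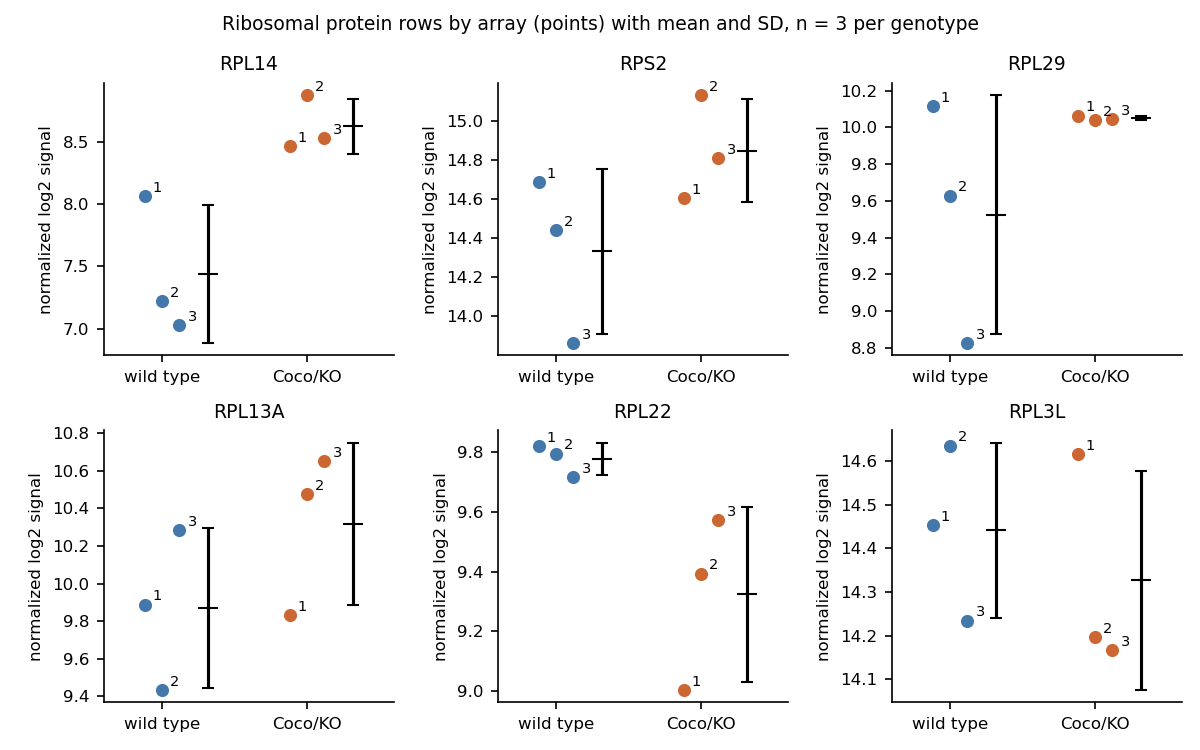
Normalized log2 signal (y axis) of 6 ribosomal protein rows on each array, numbered by replicate, with the mean and SD of the 3 arrays of each genotype beside the points. The genotypes do not overlap for RPL14 and RPL22, while RPS2, RPL29, RPL13A and RPL3L overlap; each panel has its own y range.

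The muscle paralog RPL3L was among the bright rows, at 18515.7, 28565.3 and 20626.0 in wild type and 25950.8, 15986.5 and 22306.4 in Coco/KO. Its log2 signals were 14.45, 14.64 and 14.23 against 14.62, 14.20 and 14.17. Coco/KO array 1 was as high as the higher wild-type arrays while the other Coco/KO arrays were at the low end, and the groups overlapped. The difference was -0.11 (SE 0.18, 95% interval -0.53 to 0.30, limma, adjusted p = 0.948). Leaving out 1 array moved the RPL3L value between -0.25 (without Coco/KO array 1) and -0.01 (without wild-type array 2). Without wild-type array 3 it was -0.22, without Coco/KO array 2 it was -0.05 and without Coco/KO array 3 it was -0.04.

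Among small subunit rows RPS2, a protein near the entry of the mRNA channel, stood out from the rest. Its intensity was 22640.4, 24976.5 and 16445.6 in wild type and 25668.5, 32993.9 and 30693.7 in Coco/KO. The normalized log2 signals were 14.69, 14.44 and 13.87 against 14.61, 15.13 and 14.81. The deposited intensities did not overlap, but after normalization wild-type array 1 lay above Coco/KO array 1. The difference was 0.52 (SE 0.23, 95% interval -0.02 to 1.05, limma, adjusted p = 0.625). It was 0.29 without wild-type array 3, the low array, and RefSeq lists 12 pseudogenes named after Rps2.

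The other small subunit members named here had differences between -0.15 and 0.20. RPS24, one of the genes mutated in human Diamond-Blackfan anaemia, had a difference of 0.20 (SE 0.23), with intensities from 26.6 to 115.6. RPS3, which lines the mRNA entry, had -0.15 (SE 0.18), RPS29 -0.13 (SE 0.14) and RPS3A -0.11 (SE 0.14). RPS27L, a paralog of Rps27 that p53 induces in human cells, had 0.03 (SE 0.17). RPS14, known from the human 5q- syndrome, had -0.07 (SE 0.15). All had adjusted p-values of at least 0.920 (limma). With 1 array left out, RPS24 ran from 0.05 (without Coco/KO array 3) to 0.43 (without Coco/KO array 1), and RPS3 from -0.27 (without wild-type array 1) to -0.02 (without Coco/KO array 1). The ranges were -0.17 to -0.05 for RPS29, -0.19 to -0.06 for RPS3A and -0.16 to -0.0014 for RPS14, each with its value nearest to 0 or farthest from it when Coco/KO array 3 was left out.

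The tested members fell into a bright and a dim set with a gap between them at a log2 signal of 11, a split made after the values were seen. The 26 bright rows had intensities between 3625.4 and 44358.1 and lay from the 95.8th to the 99.83rd percentile of all tested rows. The 13 dim rows had intensities from 17.0 to 1987.0. Dim and bright rows measure different probes, so this difference does not rank the genes' mRNA levels. The error between beads was 4.11% of the signal at the median for bright rows and 9.50% for dim rows, with a highest value of 32.5%. In Coco/KO 10 bright rows were higher and 16 lower (median -0.04), while 9 dim rows were higher and 4 lower (median 0.10). Over all tested rows 50.6% were higher above a log2 signal of 11 and 49.9% under it. Whether the bright and dim members differ in this was not tested.

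Bright members varied little between arrays. The SD over all 6 arrays was 0.145 at the median for bright rows and 0.312 for dim rows. Among the steadiest rows were RPL35 (0.0471), RPL39 (0.0566) and RPL26 (0.0712). The 4 with the largest SD were RPL14 (0.748), RPL29 (0.503), RPL13A (0.456) and RPS2 (0.423). Over all tested rows the median size of a difference between the genotypes was 0.131 above a log2 signal of 11 and 0.139 under it. Above a log2 signal of 13 the median size of that difference was 0.07 in 24 ribosomal protein rows and 0.10 in 333 other rows. Of these 24, 1 (4.17%) differed by over 0.25, against 14.4% of the other rows.

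**Figure D3:**
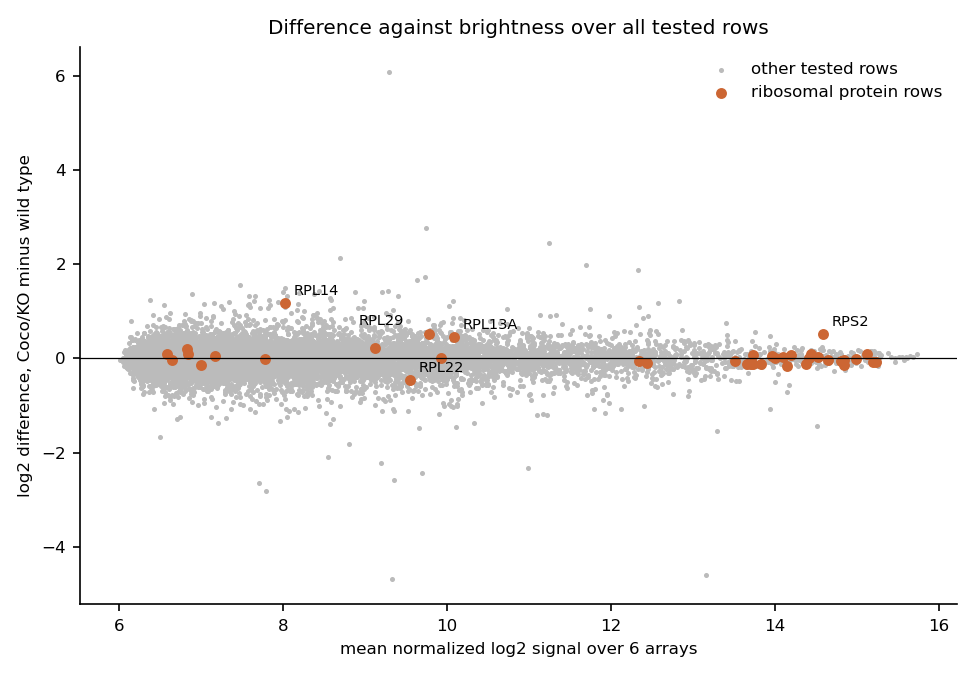
Log2 difference between Coco/KO and wild type (y axis) against the mean normalized log2 signal over the 6 arrays (x axis) for all 12611 tested rows in grey, with the 39 ribosomal protein rows in orange. The bright ribosomal protein rows lie near 0, apart from RPS2 at 0.52, and the dim rows spread more widely.

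RPL14, RPL26 and RPL22, 3 of 39 members (7.69%), had no overlap between the genotypes, against 12.7% of all tested rows (6.13% higher and 6.61% lower). This count rose to between 4 and 12 with 1 array left out, where 2 against 3 arrays separate more often. It was 6 without wild-type array 1 or 2 (15.4%, against 22.7% and 20.6% of all rows). The highest count came without the Coco/KO 1 array. In that fit 12 of 39 members (30.8%, against 24.0% of all rows tested) had no overlap, 9 higher and 3 lower in Coco/KO. There 5 of 39 members had an unadjusted p under 0.05 (limma), all higher. Over all rows the share was 9.15% in both directions together, and its split by direction was not counted. Those 5 were RPL14 (1.25), RPL31 (0.57), RPL13A (0.69), RPS2 (0.63) and RPS24 (0.43), and the lowest adjusted p among members was 0.192.

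The Coco/KO 1 array was the lowest of the 6 for 17 of the 39 rows and the highest for 1. The same count was not made over all tested rows. The median deviation of the members from their own means was -0.08 on that array and 0.07 on each of the other Coco/KO arrays. On the wild-type arrays it was 0.01, -0.0044 and 0.02. Over all tested rows the same median lay between -0.02 and 0.01 on every array. Quantile normalization keeps that median near 0, so it does not show how far another set of 39 rows would deviate. The pattern was wider in the dim rows, with medians of -0.22, 0.19 and 0.28 on Coco/KO arrays 1 to 3 and -0.17, -0.09 and 0.15 on wild-type arrays 1 to 3. The Coco/KO arrays thus fell on both sides of the wild-type range in the dim rows. The Coco/KO 1 array also had the lowest mean correlation to the other arrays over all tested rows (0.9695, against 0.9754 to 0.9775).

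**Figure D4:**
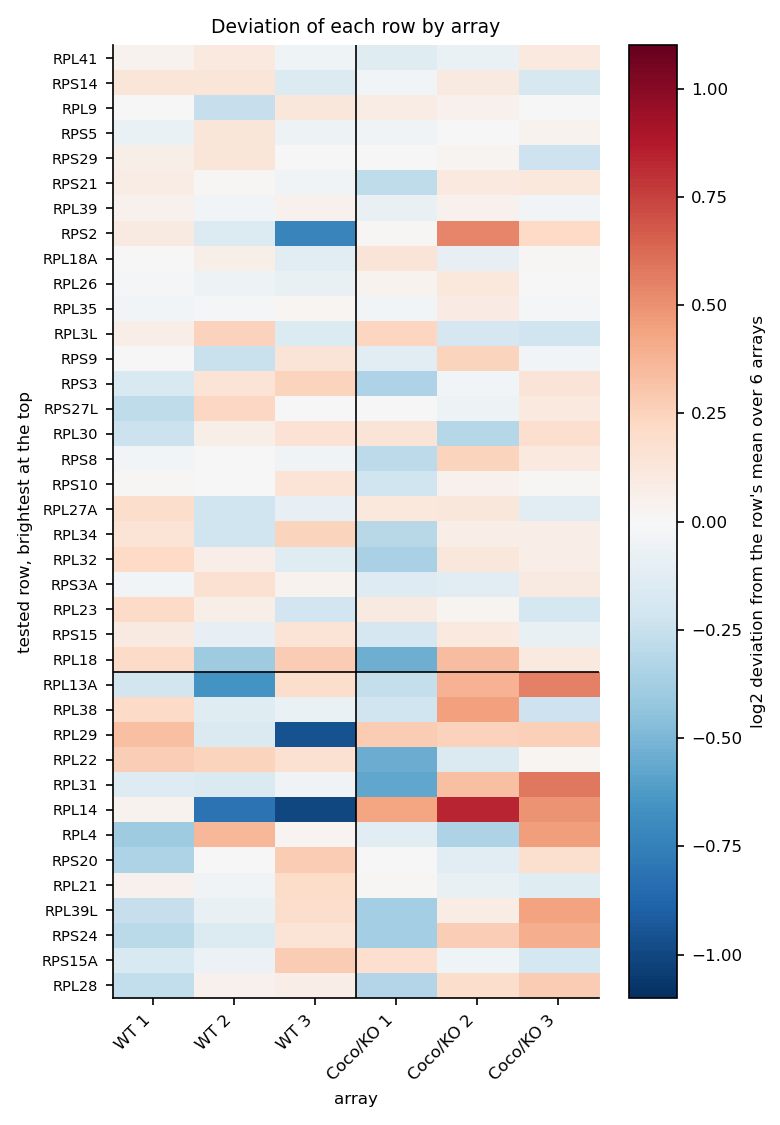
Deviation of 38 of the 39 tested ribosomal protein rows (y axis, brightest at the top, horizontal line between the bright and dim rows) from their own means on each array (x axis), on the log2 scale. Coco/KO 1 is blue in many rows where Coco/KO 2 and 3 are red, and the strongest colours are in RPL14, RPL29, RPL13A and RPS2.

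Markers of macrophages and leukocytes were higher in the same Coco/KO muscles, although no marker of any cell type examined passed the threshold. Of 15 tested markers 14 were higher, with a median of 0.67 and summed intensities of 4649.2 to 5718.3 in wild type and 6349.5, 7097.9 and 15565.8 in Coco/KO arrays 1 to 3. The summed intensities of this paragraph are deposited values, not normalized between arrays, whereas the medians are of normalized log2 differences. Mean intensity over all rows ran from 330.2 on Coco/KO array 2 to 470.2 on Coco/KO array 3, and the sums carry this difference. PTPRC, the common leukocyte antigen, was not tested because it was detected on too few arrays. Most adipocyte markers had lower values in Coco/KO (7 of 8, median -0.68, summed intensity 27997.9 to 54215.4 in wild type and 23754.7 to 33628.5 in Coco/KO). So had the smooth muscle and pericyte markers (5 of 5, median -0.29, summed intensity 5680.0 to 8777.9 and 3712.5 to 6899.1). In the adipocyte sums the row CAR3 alone gave 13777.6 to 21461.9 in wild type and 14889.4 to 20329.4 in Coco/KO. CAR3 differed by -0.10 (SE 0.14). The adipocyte marker CIDEA was higher on every Coco/KO array than on any wild-type array (0.50, SE 0.19). Of the muscle fibre markers 4 of 10 were lower, with a median of 0.02 and summed intensities of 212063.1 to 262387.3 in wild type and 192325.2 to 244429.7 in Coco/KO. TTN, the giant sarcomere protein titin, was lower on every Coco/KO array (-0.72, SE 0.23, limma, adjusted p = 0.423), and MYH2, the myosin heavy chain of fast type IIa fibres, had -0.55 (SE 0.22, adjusted p = 0.563) with overlapping groups. Among the rest, 3 of 6 endothelial markers, 4 of 8 fibroblast and tendon markers, 3 of 4 red blood cell markers and 4 of 4 Schwann cell markers were lower. The part of these cells in the values of the ribosomal protein rows was not tested. The arrays lay at positions 2, 5 and 6 of the chip for wild type and 1, 3 and 4 for Coco/KO.

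The 7 rows that were not tested were mostly without signal. RPL17, RPLP0, RPLP2, RPS13, RPS18 and RPS19 had intensities between -10.6 and 48.8 on all arrays, and of these only RPL17 and RPS18 were detected on 1 array each. For RPLP0, a protein of the ribosomal stalk, the table also held a row under the older name ARBP with log2 signals of 9.92, 10.60 and 10.80 in wild type and 9.79, 10.56 and 10.67 in Coco/KO. Those values overlapped, with a difference of -0.10 (SE 0.29, limma, adjusted p = 0.977).

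RPL37 was left out for another reason and is named after its values were seen. Its intensity was 7736.0, 11611.0 and 9733.2 in wild type and 10006.7, 7734.1 and 12533.6 in Coco/KO, yet its detection score lay between 0.41691 and 0.93898 on all 6 arrays. The genotypes overlapped. RPL18, at intensities of 3625.4 to 6784.1, scored under 0.95 on Coco/KO arrays 1 and 2. It passed the filter through the other 4, and its fit used all 6. The far dimmer RPL39L, at most 122.3, scored above 0.95 on all 6. The detection score is therefore not set by brightness alone in this table. With no filter on detection all 46 members were fitted, and none was called.

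Other proteins of the cytosolic ribosome lie outside the name rule. Of their 5 tested rows none was called, 3 were higher and 2 lower. RPL7L1, an Rpl7-like protein, had a difference of 0.33 (SE 0.18), and GNB2L1, the scaffold protein Rack1 of the small subunit, -0.26 (SE 0.25).

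The factors that work with the ribosome were examined from lists chosen with earlier results of these data known. None of 9 translation elongation factors was called (median 0.03, 5 higher and 4 lower). EEF2K, the kinase that inhibits elongation factor 2, had -0.28 (SE 0.20), EIF5A -0.29 (SE 0.28) and EEF2 -0.18 (SE 0.17). None of 35 initiation factors was called either (median -0.01, 17 higher and 18 lower). EIF2B1 had 0.29 (SE 0.17), EIF6, which keeps the large subunit from joining too early, 0.25 (SE 0.15), and EIF4A2 -0.57 (SE 0.37).

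Genes of ribosome biogenesis gave 23 higher and 11 lower of 34 tested, with a median of 0.04 and none called. NCL, the nucleolar protein nucleolin, was lower on every Coco/KO array (-0.23, SE 0.15, limma, adjusted p = 0.763), TSR1 had 0.21 (SE 0.14) and NOLA2, the Nhp2 subunit of small nucleolar particles, 0.27 (SE 0.20). Of 16 genes of translation control by mTOR, S6 kinase and Myc none was called, with 8 higher and 8 lower. RPS6KA3, a kinase of the RSK family, was 6.30, 6.55 and 6.17 in wild type and 6.88, 6.57 and 6.97 in Coco/KO. Those groups were parted by a gap of almost nothing between wild-type array 2 and Coco/KO array 2 (difference 0.47, SE 0.17, limma, adjusted p = 0.5). GBL, the mTOR partner Mlst8, had -0.30 (SE 0.15) and DDIT4, an inhibitor of mTOR under stress, 0.83 (SE 0.44).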

How the data were processed

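The deposited table was exported with BeadStudio 3.2.6 without normalization, per the file headers, and holds 1 intensity per row and array, with the standard deviation and number of its beads. Values at or below 0 made up 30.1% to 32.9% of each array, so a background level had been subtracted before deposit. The deposited detection score is a fraction, 1 minus the detection p-value. BeadStudio and limma are the tools named in the submitters' processing notes. Here a constant of 42.7 and an offset of 16 were added to the intensity values, which understates fold changes of dim rows, followed by log2 and quantile normalization over all 34492 rows. Between 11606 and 13071 rows were detected per array, and mean intensity was 330.2 to 470.2. Rows detected on at least 3 arrays (12611) were fitted on genotype with limma 3.58.1 (R 4.3.3) and adjusted over all of them. The script was checked on simulated data. The deposited value table of the same arrays was not used, because its probe identifiers are not paired with genes here. The members and lists were chosen with earlier results of these data known. Named members are the 8 highest and 8 lowest differences, the 4 largest and 4 smallest spreads, and known paralogs and regulators. From the other lists, apart from the cell type markers, the 3 of lowest p were named. The main fit did not pair the pools by replicate number. Same-numbered arrays had correlated deviations of -0.04, -0.29 and 0.09, and differently numbered arrays -0.21 to 0.27. With 3 arrays per genotype these values cannot show whether the pools were paired. A few results are not reported here. Alternatives covered normalization, offset, background, filter, variance model, array weights, replicate block, chip position and each array left out.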

Additional observations from a re-analysis of the deposited data

How the results depend on the processing

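No ribosomal protein row was called under any of the 16 alternatives, and the median over the members stayed between -0.02 and 0.04. Over all tested rows 18 were called; the count was 9 with an offset of 50, 2 with a normexp background, 9 with detection on all 6 arrays, 11 with chip position, and 5 to 27 with 1 array left out. With 1 array left out the members at an unadjusted p under 0.05 numbered 1 to 5 and those without overlap 4 to 12, where 2 against 3 arrays separate more often. Of 335 values of the 21 named members, 323 kept their sign and 12 turned. RPS3 was 0.0528 with chip position and RPL35 -0.0038 with cyclic loess. With 1 array left out the ranges were -0.009 to 0.566 for RPL31, -0.0151 to 0.2851 for RPL28, -0.0939 to 0.3084 for RPL39L, -0.0973 to 0.1545 for RPS27L, -0.2502 to 0.0161 for RPL34, -0.2051 to 0.0399 for RPL32 and -0.019 to 0.0409 for RPL35. All 8 members that turned had a difference of at most 0.23 in size before, and the cause was not tested. The replicate block left the RPL14 difference at 1.18 with an adjusted p of 0.329 (limma) and changed no call among members. The fit on the value table of the same arrays was not run. The SE of a member's difference was 0.169 at the median and 0.287 at the highest, which with 3 arrays per genotype limits the changes that could be detected.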
